A study of Homo sapiens with 6 samples.

Results

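The BCL2 family decides whether a cell opens the outer membrane of its mitochondria, the step that releases cytochrome c and starts the caspase cascade. Its pro-survival members (Bcl2, Bcl2l1, which encodes BCL-XL, and Mcl1) hold the pore-forming effectors Bax and Bak1 in check. The BH3-only members (Bcl2l11, which encodes BIM, Bid, Bad, Bik and Pmaip1, which encodes NOXA) bind the pro-survival proteins or the effectors and tip cells toward death. Paclitaxel kills many tumour cells through this pathway after mitotic arrest, and BIM, BCL-XL and MCL1 are among the proteins known to set how sensitive a cell is to it.

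The 10 members named here were taken from the 22989 rows of the count table by their gene symbol, and all 10 had a row. The study describes 6 RNA libraries of breast cancer stem cells (BCSC) made from MDA-MB-231, a human triple-negative breast cancer line. The cells were sorted for high aldehyde dehydrogenase activity. All 6 came from cells resistant to paclitaxel (PTX). The 3 libraries of the knockdown group (KD) carry the genotype LINC00115 knockdown, a short hairpin RNA against the long non-coding RNA LINC00115, and the 3 control libraries carry the genotype WT in the labels, where the study's methods and figures describe a control hairpin. The comparison asks how lowering LINC00115 in resistant BCSC goes together with the RNA levels of the family. The labels do not say whether libraries came from separate cultures, so the p-values measure the spread between these libraries, which may be technical.

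The library totals lay between 36979221 and 38799331 counts. LINC00115 was not analysed here, since none of the rows carries its name, so which group is the KD is known from the labels alone. The labels give a human line and human genome builds, but the symbols are those of mouse genes. Of the 22989 rows, 8567 have no human symbol that is equal apart from case, and they held 6.93% to 7.41% of the counts. Gm or Rik names, which mouse genes carry, stood on 5783 rows, and 804 of these reached 10 counts in all 6 libraries. Which species the counted reads came from was not tested, so each value below is that of the row with the gene's symbol. All 10 members have a human symbol that is equal apart from case, whereas Bcl2a1a, Bcl2a1b and Bcl2a1d, and Naip1, Naip2, Naip5 and Naip6, have none. Naip2 had 467 to 1355 counts. Genome positions and sequences of the members are therefore not given, and the gene lengths needed to set the level of 1 gene against that of another were not used. Vim and Cd44, markers of mesenchymal breast cancer cells, had at least 126885 and 32751 counts in every library. Fn1, also mesenchymal, was lower in the KD libraries (log2 fold change −0.45). Among stem cell markers, Sox2, Prom1 and Aldh1a3 had at most 4 counts. Aldh1a1, an aldehyde dehydrogenase, had 8 to 17 in the controls and 39 to 52 in the KD libraries. It was called higher (log2 fold change 1.82, edgeR adjusted p = 0.000925). Not every control reached 10 counts of Aldh1a1, so it passed the filter on low counts only with its KD libraries, which favoured that direction. The 7 epithelial markers summed to 598 to 608 normalized CPM in the controls and 959 to 1008 in the KD libraries, nearly all from Krt8 and Krt18. All 3 tested were higher, Krt8 at a log2 fold change of 0.67, Krt18 at 0.87 and Cdh1 at 3.71 on 1 to 3 and 22 to 31 counts, whereas Epcam and Krt19 had at most 7 counts. Cdh1 passed the filter on low counts only through its KD libraries, which fixed its direction in advance. Markers of other cell types moved with the groups. The summed level of 7 lung markers was 1.57 to 1.77 CPM (counts scaled to a common library total) in the controls and 71.7 to 82.0 in the KD libraries, with 7 of 7 higher, and that of 6 kidney markers was 8.28 to 8.56 and 24.9 to 28.5, with 5 of 6 higher and 1 lower. Of these, 5 lung and 3 kidney markers had 0 counts in all controls. Such markers passed the filter through the KD libraries alone, which fixed their direction in advance. The 10 leukocyte markers summed to 34.9 to 35.9 and 99.8 to 110.9 CPM, with 4 of the 5 tested higher, but Cd3e had 0 counts in every library. Only 2 of the 10 had at least 10 counts in every control. The others of the 5 tested therefore passed the filter only with their KD libraries, which favoured a rise. The 5 endothelial markers summed to 0.715 to 1.19 and 57.3 to 59.7 CPM, with nearly all of the KD level from Cdh5, while Kdr, Tek, Pecam1 and Vwf had at most 20 counts in any library. The 6 fibroblast markers summed to 174 to 193 and 75.7 to 77.8 CPM. The part of these in the changes below was not tested. In bulk RNA, fewer cells of a type and less RNA per cell cannot be told apart.

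The KD libraries held 2.01-fold more Bcl2l1 and 2.37-fold less Bcl2l11 RNA than the controls. Bid followed at 1.86-fold more, and the other 5 members tested differed by 1.28-fold or less. The fit was edgeR's quasi-likelihood test over the 13497 genes that passed its filter on low counts, with Benjamini-Hochberg adjustment over all of them (SE is the standard error), and a gene was called at an adjusted p under 0.05 and a fold change over 2. Of the 10 members, 8 passed the filter. At both thresholds 1 was called lower, against 9.98% of all genes tested, and 1 was called higher (0 without control replicate 1), against 10.2%. Without the fold threshold, 4 of the 8 passed as lower and 4 as higher, where 36.7% of all genes tested passed as lower, 36.7% as higher and 73.4% in either direction. The median log2 fold change of the 8 was −0.03 and that of all genes tested −0.01, and the median size was 0.34 against 0.45. The share of members past both thresholds was thus near that of all genes tested. In 7 of the 8 the normalized levels of the groups did not overlap, which was so for 75.6% of all genes tested.

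Among the pro-survival members, Bcl2l1 and Mcl1 rose. Bcl2l1 stood at 132, 137 and 141 normalized CPM in control replicates 1, 2 and 3 and at 276, 267 and 279 in KD replicates 1, 2 and 3. Every KD library lay far above every control library. The group mean rose from 136 ± 4.46 to 274 ± 6.25 (SD, 3 libraries in each group, n = 3), for a log2 fold change in KD of 1.01 (SE 0.04, edgeR adjusted p = 1.27e-22). This fold of 2.01 sits on the threshold. It was under it with upper quartile scaling (log2 fold change 0.97), with library totals alone (0.99) and without control replicate 1 (0.98), although the adjusted p stayed under 0.05 in each.

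Mcl1, a short-lived guardian that cells need to survive a long mitosis, had 238, 239 and 236 normalized CPM in the controls and 299, 289 and 308 in the KD libraries. The groups did not overlap, and the coefficient of variation of the controls was 0.644%. The log2 fold change was 0.33 (SE 0.03, edgeR adjusted p = 2.36e-10), a fold of 1.26.

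Bcl2, the founding member, had 16.5, 22.5 and 18.0 normalized CPM in the controls and 16.9, 16.5 and 15.4 in the KD libraries. The groups overlapped, and control replicate 2 stood above the other 5 libraries. The fitted log2 fold change was −0.22 (SE 0.10, edgeR adjusted p = 0.0387). Without control replicate 2 it was −0.08 (edgeR adjusted p = 0.473), and the adjusted p was also over 0.05 without any 1 of the 3 KD libraries (0.056 to 0.152) and with DESeq2's Wald test (0.0763), so whether Bcl2 passes on the adjusted p rests on single libraries.

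**Figure D1:**
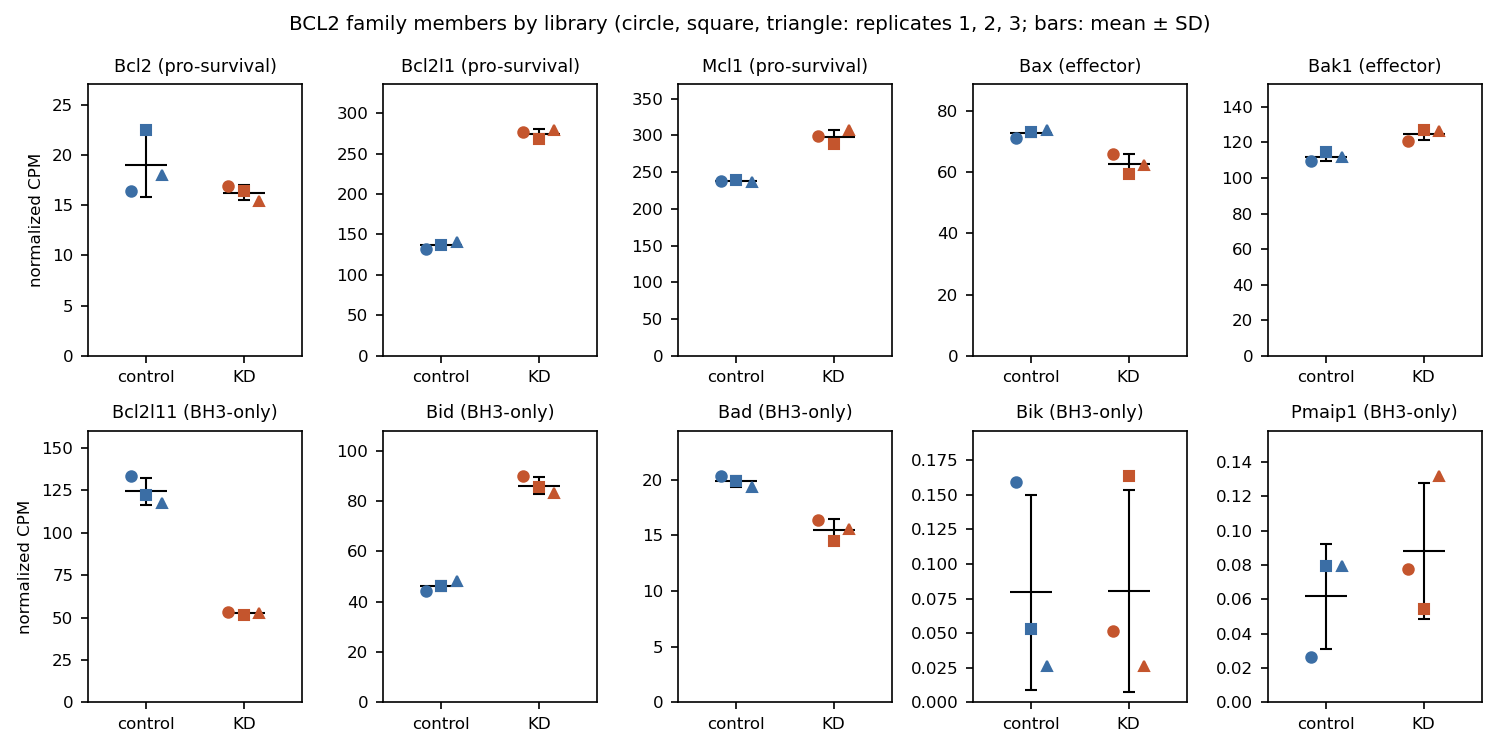
Normalized CPM (counts scaled to the TMM-adjusted library total; vertical axes from 0, with a scale for each gene) of the 10 members in the 3 control and 3 KD libraries; symbols are replicates, horizontal bars the mean and error bars the SD. Bcl2l1 and Bid are higher and Bcl2l11 lower in every KD library, Bcl2 overlaps between the groups, and Bik and Pmaip1 lie below 0.17 normalized CPM in every library.

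The effectors moved by small amounts in opposite directions. Bax, which moves from the cytosol to mitochondria when activated, had 71.0, 73.1 and 73.7 normalized CPM in the controls and 65.9, 59.5 and 62.4 in the KD libraries. Every KD library was below every control library, at a log2 fold change of −0.21 (SE 0.05, edgeR adjusted p = 0.00031). Bak1, which resides on the mitochondrial membrane, had 109, 115 and 112 in the controls and 121, 127 and 126 in the KD libraries. Its rise was 0.15 on the log2 scale (SE 0.04, adjusted p = 0.00124), a fold of 1.11, and the groups did not overlap.

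Of the 5 BH3-only members, Bcl2l11 and Bad fell, Bid rose, and Bik and Pmaip1 were too low to test. Bcl2l11, whose protein BIM binds all pro-survival members and activates the effectors, had 133, 122 and 118 normalized CPM in the controls and 53.1, 51.7 and 52.9 in the KD libraries. The KD libraries lay close together and far below the controls. The group mean went from 124 ± 8.10 to 52.5 ± 0.717 (SD, n = 3), for a log2 fold change of −1.24 (SE 0.05, edgeR adjusted p = 7.11e-22), and this gene was called lower under each of the 13 alternative fits (−1.28 to −1.19).

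Bid, which links death receptors to mitochondria once caspase 8 has cut it, had 44.3, 46.3 and 48.2 normalized CPM in the controls and 89.9, 85.5 and 83.2 in the KD libraries. The groups were far apart. Its log2 fold change of 0.90 (SE 0.05, edgeR adjusted p = 3.4e-17) was under the fold threshold, with 0.86 to 0.93 over the alternatives.

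Bad, which frees the effectors by binding BCL2 and BCL-XL unless growth-factor kinases have phosphorylated it, had 20.3, 19.9 and 19.3 normalized CPM in the controls and 16.4, 14.5 and 15.5 in the KD libraries. The groups did not overlap, and the log2 fold change was −0.36 (SE 0.09, edgeR adjusted p = 0.000395).

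Pmaip1, whose protein NOXA binds mainly MCL1, had 1, 3 and 3 counts in the controls and 3, 2 and 5 in the KD libraries. Bik, a BH3-only gene best known from epithelial cells, had 6, 2 and 1 counts in the controls and 2, 6 and 1 in the KD libraries. Both lay at or near 3 counts, or 0.0773 to 0.0811 CPM at these depths, up to which a true level can still give a count of 0 (counting error only). A difference in either gene was not detectable at this depth.

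Summed over the members, RNA of the family was higher in the KD libraries, at 911 to 943 normalized CPM against 765 to 774 in the controls, and more of it came from the pro-survival members. The 3 pro-survival members summed to 387 to 398 normalized CPM in the controls and 573 to 603 in the KD libraries. The effectors summed to 181 to 188 and 186 to 189, ranges that overlap. The BH3-only members summed to 185 to 198 and 152 to 159. Of all reads on the 10 members, Bcl2l1 took 17.8% ± 0.589 in the controls and 29.5% ± 0.136 in the KD libraries (SD, n = 3 each). The share of Bcl2l11 went the other way, from 16.2% ± 1.09 to 5.65% ± 0.0371. Mcl1 took 30.9% ± 0.166 and 32.1% ± 0.50. These shares depend on transcript length and are compared between libraries only.

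The ratio of 2 members within a library does not depend on how libraries are scaled. There were 1.01, 0.895 and 0.835 reads on Bcl2l11 for each read on Bcl2l1 in the controls and 0.192, 0.193 and 0.189 in the KD libraries. The ratio was 4.75-fold lower in the KD libraries, and the groups were far apart. Against Mcl1, Bcl2l11 had ratios of 0.560, 0.511 and 0.498 in the controls and 0.177, 0.179 and 0.172 in the KD libraries, a 2.97-fold difference. Bax to Bcl2l1 stood at 0.538, 0.535 and 0.523 in the controls and 0.239, 0.222 and 0.223 in the KD libraries, lower by a fold of 2.33. In an exact permutation test, two-sided, each of these 3 ratios gave p = 0.1, the smallest that 3 libraries against 3 allow, and 0.167 after adjustment over the 5 ratios tested, so none can pass 0.05 in this design.

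The Bax to Bcl2 ratio, often quoted as an index of apoptotic priming, showed no such separation. It was 4.32, 3.25 and 4.10 in the controls and 3.91, 3.61 and 4.04 in the KD libraries, so that the KD values fell inside the control range. The mean log2 difference was −0.0030 with SDs of 0.219 and 0.0827 in the control and KD libraries (exact permutation p = 1). Pmaip1 to Mcl1 rested on 1 to 5 counts of Pmaip1 and gave an exact permutation p of 0.8.

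**Figure D2:**
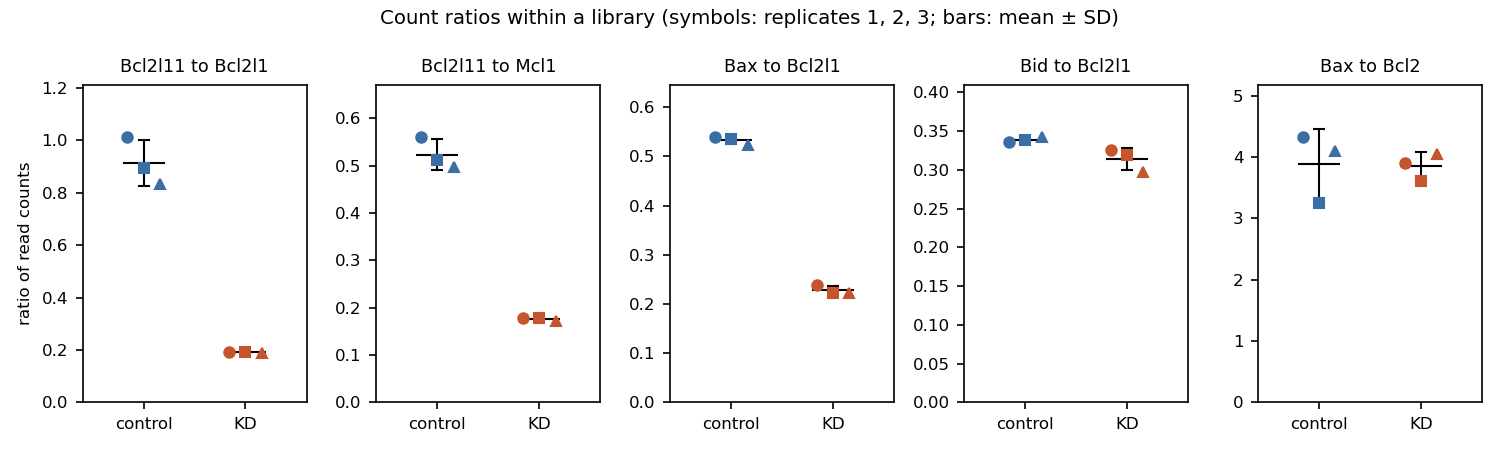
Ratio of read counts of 2 members within each library (vertical axes from 0, with a scale for each ratio) in the control and KD libraries; symbols are replicates, horizontal bars the mean and error bars the SD. The 3 ratios on the left separate the groups widely, with Bcl2l11 to Bcl2l1 at 0.835 to 1.01 in the controls against 0.189 to 0.193. Bid to Bcl2l1, chosen after the values were seen, separates them by less, at 0.335 to 0.342 against 0.298 to 0.325. The Bax to Bcl2 ratios of the KD libraries lie within the range of the controls.

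Outside the 10 members, 13 other genes of the family had a row and 7 passed the filter. Of these, edgeR's quasi-likelihood test found 4 lower and 0 higher without a fold threshold, with 1 higher at an unadjusted p under 0.05 and 0 higher with DESeq2's Wald test. Of all genes tested, 36.7% passed as lower and 36.7% as higher. Without control replicate 3, 2 of the 7 were lower, and with upper quartile scaling or library totals alone 5 were. With DESeq2's size factors Bcl2l2 passed as higher. In the fit on all 6 libraries the median log2 fold change was −0.30. Bmf, a BH3-only gene tied to loss of anchorage, fell most, from 3.08, 3.73 and 2.49 normalized CPM in the controls to 0.801, 0.654 and 0.895 in the KD libraries. Its log2 fold change was −1.98 (SE 0.30, adjusted p = 5.58e-07), on 94 to 141 counts in the controls and 24 to 34 in the KD libraries, and the groups did not overlap.

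Bcl2l13, a mitochondrial membrane protein of the family, also fell, with a log2 fold change of −0.30 (SE 0.05, edgeR adjusted p = 7.66e-06). Bbc3, which encodes the p53-induced BH3-only protein PUMA, was at −0.36 (adjusted p = 0.0318) and Bok, an effector-like gene, at −0.17 (adjusted p = 0.00819), but the groups overlapped in both. Neither passed the fold threshold, and their adjusted p was over 0.05 in 4 and 2 of the 6 fits without 1 library, at up to 0.148 for Bbc3 without KD replicate 1 and 0.0857 for Bok without KD replicate 2. Bbc3 also missed the threshold without KD replicate 2 (0.0793), control replicate 2 (0.102) and control replicate 3 (0.0792), and Bok without control replicate 3 (0.0614). Bcl2l2, the pro-survival BCL-W gene, had a log2 fold change of 0.14 (adjusted p = 0.0587), Bcl2l12 −0.31 (adjusted p = 0.0635) and Bcl2l15 −0.24 (adjusted p = 0.596), and none passed. In other edgeR fits Bcl2l12 did pass as lower. These were upper quartile scaling (edgeR adjusted p = 0.0369), library totals alone (0.0493) and the fit without KD replicate 2 (0.0433). Bcl2a1a, Bcl2a1b, Bcl2a1d, Bcl2l10, Bcl2l14 and Hrk had at most 4 counts in any library. The Bcl2a1 genes, known mainly from leukocytes, are near-identical copies, so reads could be split among them.

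**Figure D3:**
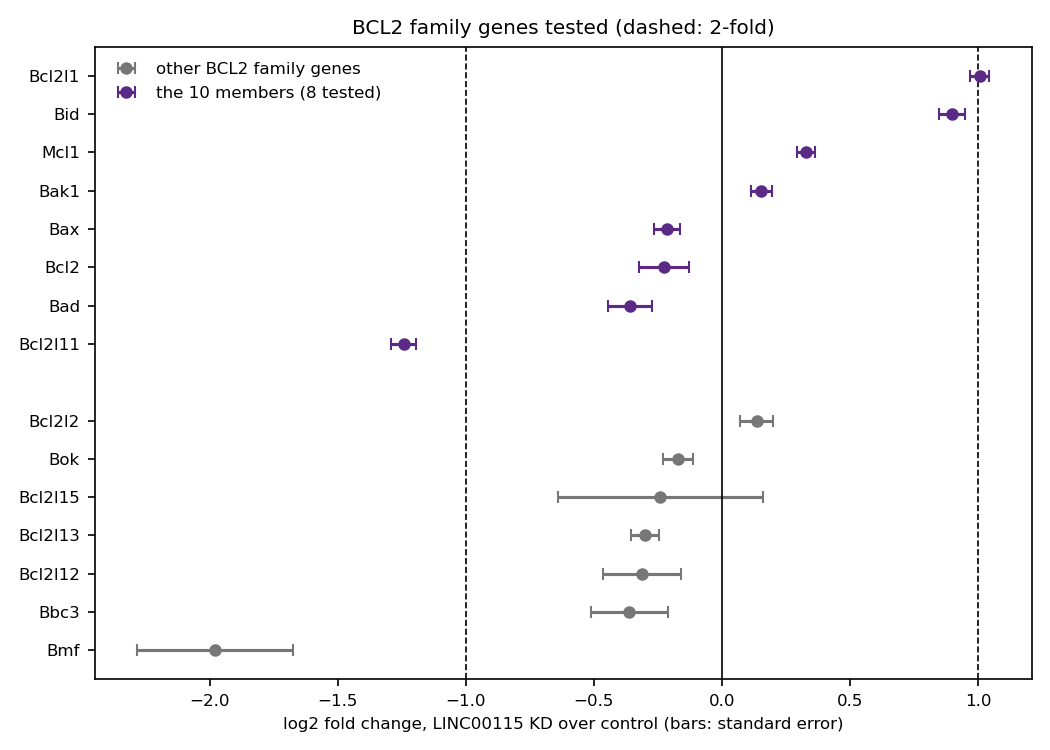
Log2 fold change (KD over control, horizontal axis) of the 8 members and 7 other BCL2 family genes tested, with bars for the standard error and dashed lines at a 2-fold change. Bcl2l11 and Bmf lie below the lower line, Bcl2l1 lies on the upper line at 1.01, and Bid is just inside it at 0.90.

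Downstream of the family, genes of cytochrome c release and caspase activation changed in both directions. Of 15 tested, 7 were lower and 5 higher without a fold threshold, against 36.7% of all genes tested in each direction. The median log2 fold change of the 15 was −0.17. Casp6, an executioner caspase, fell from 54.1, 49.5 and 53.3 normalized CPM in the controls to 15.8, 15.1 and 15.9 in the KD libraries, a log2 fold change of −1.74 (SE 0.07, edgeR adjusted p = 5.76e-22). Htra2, a mitochondrial protease that opposes inhibitors of apoptosis once released, rose from 39.9, 43.3 and 45.4 to 89.4, 89.8 and 87.8 normalized CPM, a log2 fold change of 1.05 (SE 0.05). In both genes the groups did not overlap.

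Of 8 inhibitor of apoptosis genes tested, 4 were lower and 4 higher, against 36.7% of all genes tested in each direction. The median log2 fold change of the 8 was 0.09. Those called were Naip2 (log2 fold change 1.22), Naip5 (2.52) and Naip6 (2.22), sensors of bacterial proteins in mice that are close copies of one another, so their split of reads is uncertain. Naip5 and Naip6 were low in the controls, with 9 to 24 and 27 to 49 counts. Control replicate 3 had 9 counts of Naip5, under the filter's minimum of 10. Naip5 thus passed the filter only with its KD libraries, which favoured a call as higher. With at least 10 counts required in every library, 3 genes of the list were higher.

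In the death receptor arm, which reaches mitochondria through Bid, 4 of 9 genes were higher (3 to 4 with each library left out). Of the 9, 2 were lower (1 without control replicate 3), and the median log2 fold change was 0.08. The share of all genes tested was 36.7% in each direction. Tnfsf10, which encodes the death ligand TRAIL, rose from 60, 37 and 67 counts in the controls to 540, 491 and 481 in the KD libraries, a log2 fold change of 3.20 (SE 0.17, edgeR adjusted p = 3.65e-18). Cflar, whose protein FLIP blocks caspase 8, rose by 1.13 on the log2 scale (SE 0.04). For Casp8 itself, the protease that cuts Bid, the log2 fold change was −0.09 (adjusted p = 0.172). Its groups overlapped.

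Among transcription factors known to act on BH3-only genes, 6 of 11 tested were lower and 4 higher, against 36.7% of all genes in each direction. The median log2 fold change of the 11 was −0.17. Foxo3, an activator of BIM and BMF transcription, was the 1 called at both thresholds. It fell from 129, 119 and 126 normalized CPM in the controls to 54.8, 53.9 and 49.6 in the KD libraries, a log2 fold change of −1.24 (SE 0.05, edgeR adjusted p = 6.44e-22).

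Of 21 kinases, Ywha adaptor proteins and dynein light chains that restrain BAD, BIM or BMF, 9 were lower and 9 higher, with a median log2 fold change of 0.05. The share of all genes tested was 36.7% in each direction. Pim2, a kinase that phosphorylates BAD, fell from 29.6, 26.7 and 31.0 to 7.86, 8.04 and 8.03 normalized CPM (log2 fold change −1.87, SE 0.09). Of 6 genes tested for turnover of the MCL1 and BIM proteins, 1 was lower and 2 higher, and none passed both thresholds. The largest change there was that of Btrc, a ubiquitin ligase subunit, at −0.94 (SE 0.09).

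**Figure D4:**
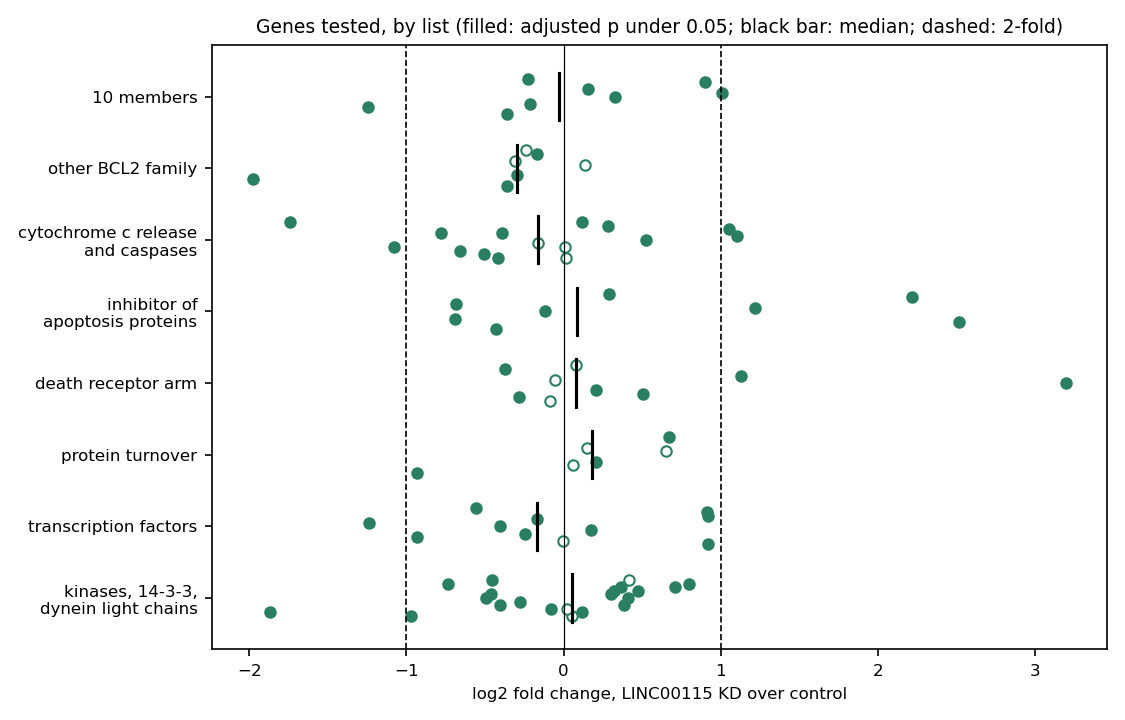
Log2 fold change (KD over control, horizontal axis) of each gene tested in the 8 lists; filled points have an adjusted p under 0.05, black bars are list medians and dashed lines mark a 2-fold change. Each list holds genes on both sides of 0, with medians between −0.30 for the other BCL2 family genes and 0.18 for protein turnover.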

How the data were processed

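RNA was sequenced in 3 KD and 3 control libraries. The authors trimmed adapters, mapped reads with HISAT2 and deposited whole-number counts per gene without normalization. The methods name hg19, whereas the submitters' processing notes name hg38, featureCounts and DESeq2. Use of strand is not given in the sources used here, so reads on overlapping genes may be misassigned. Tests used edgeR 4.0.16 under R 4.3.3 (filterByExpr with a minimum count of 10, TMM scaling, group as the only term, Benjamini-Hochberg over 13497 genes). The thresholds on q and fold change follow the methods. Normalized CPM use TMM-scaled totals, SE is the size of the log2 fold change over the square root of F, and n is 3 libraries a group. The biological coefficient of variation was 5.21%. Within groups, chi-square per degree of freedom between libraries was 3.94 to 7.96, so none was a copy. Columns of values not used number 0. On counts drawn with known changes in 200 of the genes, 193 of them passed an adjusted p under 0.05 in the right direction. The KD against control fit (13485 genes) also passed 11 others. No fold threshold was used there. The drawn counts changed a far smaller part of the genes than the 73.4% that passed in the data. Members and lists were chosen with earlier results of these data known. Named were all members, all other family genes with a row, and in each pathway list the genes past both thresholds or, with none, the largest change. Some genes of these lists enter the counts but are not reported here by name. Vim, Cd44 and the other markers named, and Casp8, were chosen after their values were seen. Alternatives were DESeq2 1.42.0, other scalings and filters, a replicate block, a test against a fold change of 1.5, no fold threshold and each library left out.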

Additional observations from a re-analysis of the deposited data

How the results depend on the processing

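Bcl2l11 was the 1 member called lower in every fit, and without the fold threshold 4 were lower. The count called higher was 1 and rests on Bcl2l1. It was 0 in edgeR with upper quartile scaling and with library totals alone (0 also at an unadjusted p under 0.05, since the fold was then under 2), 1 with DESeq2's Wald test, 2 in the test against a fold change of 1.5, where Bid joined, 4 without the fold threshold, and 0 to 1 with each library left out. The median log2 fold change of all genes was −0.01, and −0.05 with upper quartile scaling. Of 156 list counts recomputed, 155 stayed within 1.5 times. Genes lower in the death receptor arm ranged from 1 to 2 with each library left out, and genes higher from 3 to 4. The log2 difference of the Bax to Bcl2 ratio ranged from −0.127 to 0.0779 and that of Pmaip1 to Mcl1 from −0.28 to 0.52, so neither has a stable sign, while Bcl2l11 to Bcl2l1 stayed between −2.31 and −2.17. The log2 fold change of Bcl2l15 ranged from −0.50 to 0.36 with each library left out, positive without control replicate 1. The cause was not tested. Libraries with the same replicate number did not deviate together (correlations −0.02 to 0.01), and not every library correlated best with its own number. With the replicate block, 1 member was lower and 1 higher, as without it. A count near 3 limits Bik, Pmaip1 and 6 other family genes.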

Other observations

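The ratio of Bid to Bcl2l1 reads, chosen after the values were seen and not tested, was 0.335, 0.339 and 0.342 in the controls and 0.325, 0.320 and 0.298 in the KD libraries. Every KD value lay below every control value, by a fold of 1.08 between the group means on the log scale. The effectors shifted against each other: the ratio of Bax to Bak1 reads, also chosen after the values were seen, was 0.649, 0.638 and 0.659 in the controls and 0.547, 0.468 and 0.493 in the KD libraries.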
